A study of Mus musculus with 28 samples.

Results

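The genes of antigen presentation by the major histocompatibility complex (MHC) were followed here in liver and muscle of obese mice given aspirin with trimetazidine. They are 10 genes chosen by name, 7 of class II (H2-Aa, H2-Ab1, H2-Eb1, Cd74, Ciita, H2-DMa and H2-DMb1) and 3 of class I (H2-K1, H2-D1 and B2m), and each of the 3 deposited tables, with 54163 to 54501 genes, lists all 10. All libraries came from male Lepob/Lepob mice on the C57BL/6J background, which make no working leptin and become obese. From 4 weeks of age they ate the AMLN diet for 20 weeks (40% of calories from fat, 20% from fructose, 2% cholesterol by weight), which produces a fatty, inflamed liver, and they stayed on it during treatment. Treated mice received aspirin (acetylsalicylate, 3.0 mg/kg) and trimetazidine (5.0 mg/kg) by daily injection into the abdomen, and vehicle mice received the same volume of solvent. After 40 d each tissue had 6 treated and 6 vehicle libraries, and at 24 h it had 1 of each. Mutation and diet were common to both groups, so no lean mouse and no mouse on plain diet enters any comparison here. Mice carry the numbers of their labels, and as no first digit of these occurs in both groups at 40 d, anything that goes with that digit cannot be told apart from treatment.

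Class I molecules sit on nearly all nucleated cells and show peptides from inside the cell to CD8 T cells. H2-K1 and H2-D1 encode their heavy chains, and B2m encodes beta-2 microglobulin, the light chain both need. Class II molecules are made mainly by macrophages (Kupffer cells in liver), dendritic cells and B cells, and show peptides from engulfed material to CD4 T cells. H2-Aa and H2-Ab1 encode the alpha and beta chain of the A molecule and H2-Eb1 the beta chain of the E molecule. Cd74 encodes the invariant chain, which fills the groove during transport, H2-DMa and H2-DMb1 form the DM molecule that exchanges its remnant for peptide, and Ciita encodes the transactivator that switches the class II genes on. Both classes are induced by interferon gamma, and in class II promoters the factors that recruit CIITA bind an X box and, downstream of it, an inverted CCAAT box.

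Most of the genes lie on chromosome 17 of GRCm38, from H2-K1 (33996017 to 34000333, minus strand) to H2-D1 (35262730 to 35267499, plus strand). B2m is on chromosome 2 (122147686 to 122153083) and Ciita on chromosome 16 (10480059 to 10528418). RefSeq promoters (GRCm38.p6) were matched for 7 of the 10 genes, all but H2-Ab1, Cd74 and Ciita, and the 250 bases before each start were searched. Stretches of 6 of them are shown because they hold the elements by which the genes of a class are known to be switched together. Capitals mark the letters searched for, which were spelled out after these promoters had been looked at. In the class II genes they are GNAACT and TGANG (the X box region), followed by ATTGG (the inverted CCAAT box). In the heavy chain genes they are GGGGA directly followed by TTCCCC (the enhancer A palindrome). In B2m they are GAAA, any 2 bases and GAAA (the core of an interferon response element).
H2-Aa, chr17:34287861-34287910, minus strand: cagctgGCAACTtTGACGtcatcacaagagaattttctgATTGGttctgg
H2-Eb1, chr17:34305770-34305818, plus strand: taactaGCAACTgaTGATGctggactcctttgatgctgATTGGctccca
H2-DMb1, chr17:34153091-34153115, plus strand: tacctaGTAACTgaTGATGctaggc
H2-K1, chr17:34000435-34000464, minus strand: agggctGGGGATTCCCCatctccacagttt
H2-D1, chr17:35262917-35262946, plus strand: agggctGGGGATTCCCCatctcctcagttt
B2m, chr2:122147542-122147563, plus strand: gaacatGAAACTGAAAatggga

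The class II arrangement (GNAACT, 0 to 3 bases, TGANG, 10 to 30 bases, ATTGG, on either strand) was found in 10 of 32851 mouse promoters of the same length, or 0.0304%, which belong to 9 genes. H2-Aa, H2-Eb1 and H2-DMb1 are among them, and the ATTGG of H2-DMb1 lies beyond the stretch shown. Neither of the 2 RefSeq windows of H2-DMa (beginning at 34122582 and 34125268, upstream of the GENCODE gene at 34135182) holds it. The stretch shown for H2-DMb1 is upstream of its RefSeq start but within the first exon of its GENCODE gene, which begins at 34153072. The enhancer A letters were found, on either strand, in 10 promoters (0.0304%), H2-K1 and H2-D1 among them, and the windows printed for these genes are identical at 29 of 30 bases. The interferon element letters were more common, in 978 promoters (2.98%). CCAAT alone, which overlaps the class II arrangement as ATTGG on the other strand, was in 11120 (33.8%). A match of letters is a description and shows no binding.

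Libraries held 16060699 to 19920148 reads on genes, and the values are FPKM, which scale fragments by gene length and library size and so allow levels of different genes to be compared. Mitochondrial genes took 4.37% to 6.54% of the reads in vehicle and 3.74% to 4.41% in treated livers at 40 d, and 7.15% to 10.5% and 5.10% to 9.40% in muscles. Their part in the results was not tested. Summed FPKM of 5 hepatocyte genes was 20240 to 37140 in the livers at 40 d, against at most 146.5 in the muscles, and that of 7 myofibre genes was 23700 to 44130 in the muscles, against at most 5.40 in the livers. The highest hepatocyte value among muscles, 146.5, was in vehicle 3_2. The labels do not name the muscle. Of the 10 genes, 9 passed the filter of 1 FPKM in at least 6 of 12 libraries in each tissue, and Ciita did not.

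**Figure D1:**
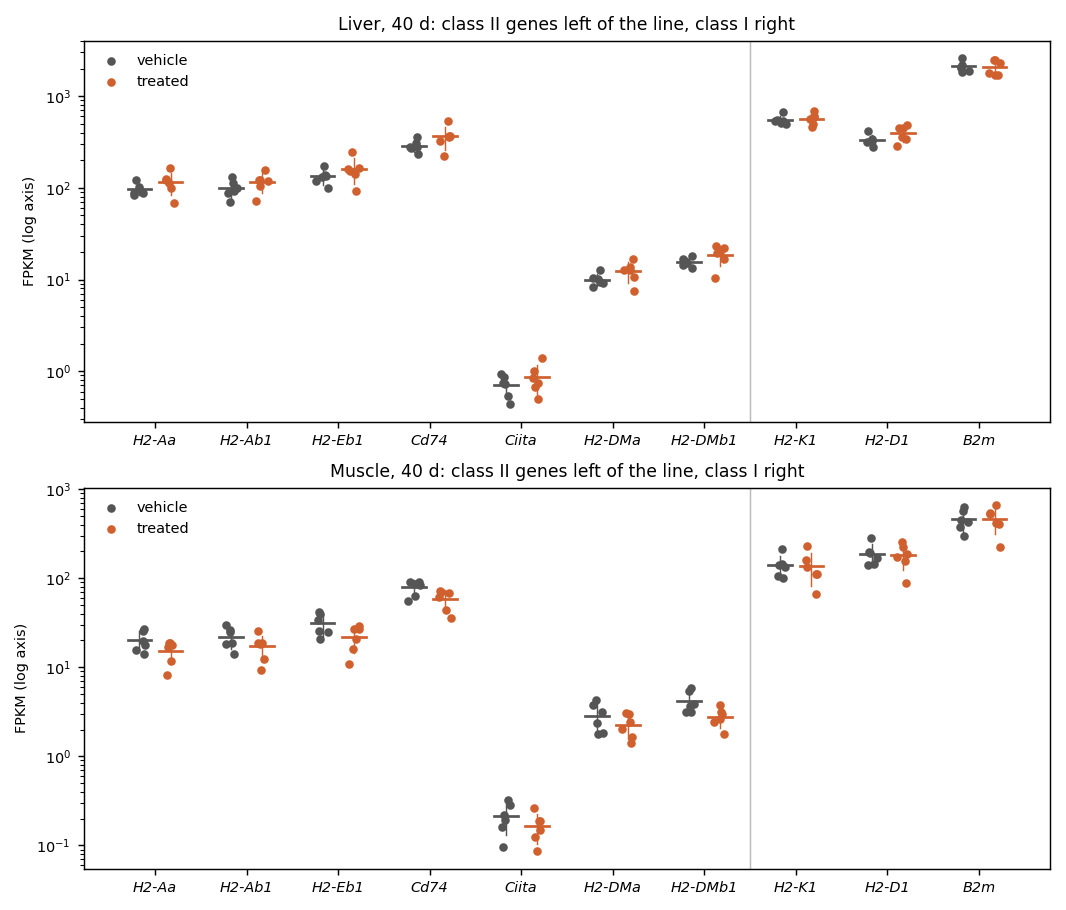
FPKM of the 10 MHC genes in each library at 40 d (log axis), liver above and muscle below, with vehicle in grey and treated in orange. Points are libraries, horizontal lines group means and vertical lines 1 SD (n = 6). The groups overlap for all 10 genes in both tissues, and the order of the genes is alike except that H2-K1 and H2-D1 change places.

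B2m had the highest level of the set and Ciita the lowest in both tissues. In vehicle livers the order was B2m (2105 ± 274 FPKM, mean ± SD, n = 6), H2-K1 (549 ± 61.9), H2-D1 (336 ± 44.7), Cd74 (286 ± 40.1), H2-Eb1 (133 ± 24.9), H2-Ab1 (98.8 ± 21.05), H2-Aa (96.8 ± 14.2), H2-DMb1 (15.55 ± 1.60), H2-DMa (9.99 ± 1.57) and Ciita (0.7065 ± 0.189). Between neighbours in this order, the libraries of H2-D1 and Cd74, of H2-Eb1 and H2-Ab1 and of H2-Ab1 and H2-Aa overlapped, and the others did not. In vehicle muscles B2m stood at 457 ± 124 FPKM, H2-D1 at 188 ± 53.2, H2-K1 at 139 ± 39.9, Cd74 at 78.8 ± 15.6 and H2-Eb1 at 31.1 ± 8.69. Below these came H2-Ab1 (21.9 ± 5.74), H2-Aa (20.1 ± 5.29), H2-DMb1 (4.20 ± 1.15), H2-DMa (2.85 ± 1.03) and Ciita (0.212 ± 0.0830). There the libraries of H2-D1 and H2-K1, of H2-Eb1 and H2-Ab1, of H2-Ab1 and H2-Aa and of H2-DMb1 and H2-DMa overlapped. Within each vehicle library, however, H2-Eb1 exceeded H2-Ab1, by a ratio of 1.235 to 1.44 in livers and 1.32 to 1.62 in muscles. Within each vehicle muscle H2-K1 over H2-D1 was 0.719 to 0.800 and H2-DMb1 over H2-DMa 1.18 to 1.79. Only H2-Aa over H2-Ab1, among these ratios, lay on both sides of 1 (0.912 to 1.27 in livers, 0.768 to 1.05 in muscles). The tables of the tissues were normalized separately, so levels are set side by side without a test.

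The first comparison asked whether 40 d of the drugs changed class II transcripts in liver, and none passed the test. Every one of the 6 tested class II genes was higher on average in treated livers, by a log2 fold change of 0.21 to 0.31 (treated against vehicle, computed on log2(FPKM + 1), a scale that understates changes of low genes), with a median of 0.22. Across all 10995 genes tested the median was -0.0033, and 49.0% were positive. None of the 9 tested MHC genes had a limma adjusted p under 0.05, against 0.255% of all genes (28 genes), and none had an unadjusted p under 0.05, against 13.2% (1455 genes). With limma voom on the recovered reads the count was also 0 of 9. The groups overlapped for all 10 MHC genes, against 1.16% of genes whose groups did not overlap. In bulk tissue, fewer cells of a type and less RNA per cell cannot be told apart.

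Cd74, the invariant chain, had the largest difference of the set in liver. Its vehicle libraries ran from 235 FPKM (3_2) over a median of 277 to 354 (2_3). Its treated libraries ran from 225 (5_2) over a median of 359 to 542 (4_5). Treated livers thus held both the lowest and the highest value, 3 of the 6 lay above every vehicle liver, and the groups overlapped. The mean was 286 ± 40.1 FPKM in vehicle and 363 ± 102.5 in treated livers, a log2 fold change of 0.31 (SE 0.17, 95% interval -0.06 to 0.68, limma adjusted p = 0.470).

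The chains of the class II molecules shared the mice at the ends of the treated range. H2-Aa ran from 83.35 to 122 FPKM in vehicle livers (median 92.3) and from 68.5 to 163 in treated livers (median 118). H2-Ab1 ran from 69.8 to 130.5 (median 96.3) and from 71.1 to 155 (median 121). H2-Eb1 ran from 101 to 175 (median 134) and from 92.4 to 245 (median 158). In each of the chain genes treated 4_5 was the highest and 5_2 the lowest treated liver, and vehicle 2_3 was the highest vehicle liver. Their log2 fold changes were 0.21, 0.22 and 0.22, with SEs of 0.17, 0.18 and 0.19 and limma adjusted p = 0.622, 0.623 and 0.642.

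The genes of the DM molecule, which loads peptide, differed by similar amounts. H2-DMa ran from 8.26 to 12.8 FPKM in vehicle livers (median 9.69) and from 7.43 to 16.8 in treated livers (median 12.7), a log2 fold change of 0.26 (SE 0.15, 95% interval -0.08 to 0.59, limma adjusted p = 0.5035). H2-DMb1 ran from 13.5 to 17.8 (median 15.5) and from 10.5 to 23.5 (median 19.6), a log2 fold change of 0.22 (SE 0.155, 95% interval -0.12 to 0.55, limma adjusted p = 0.574). For H2-DMb1, 4 of 6 treated mice exceeded all vehicle mice, and 5_2 was below all of them. Ciita, under the filter, rested on 77 to 251 reads per liver. It ran from 0.436 to 0.926 FPKM in vehicle and from 0.497 to 1.39 in treated livers, with means of 0.7065 ± 0.189 and 0.856 ± 0.311.

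Expressed as a score, the mean over the 6 tested class II genes of the log2 difference from the vehicle mean, vehicle livers lay between -0.24 and 0.34. Treated livers stood at 0.76 (4_5), 0.35 (5_1), 0.35 (5_3), 0.305 (5_4), 0.12 (5_5) and -0.44 (5_2). The last mouse was therefore below and 3 treated mice were above all vehicle livers. Without 4_5 the median log2 fold change of the class was 0.14, and without 5_2 it was 0.37. Without both it was 0.29, and none of the MHC genes passed in any of these fits, although 83 genes did over the whole table without 5_2 and 144 without both.

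**Figure D2:**
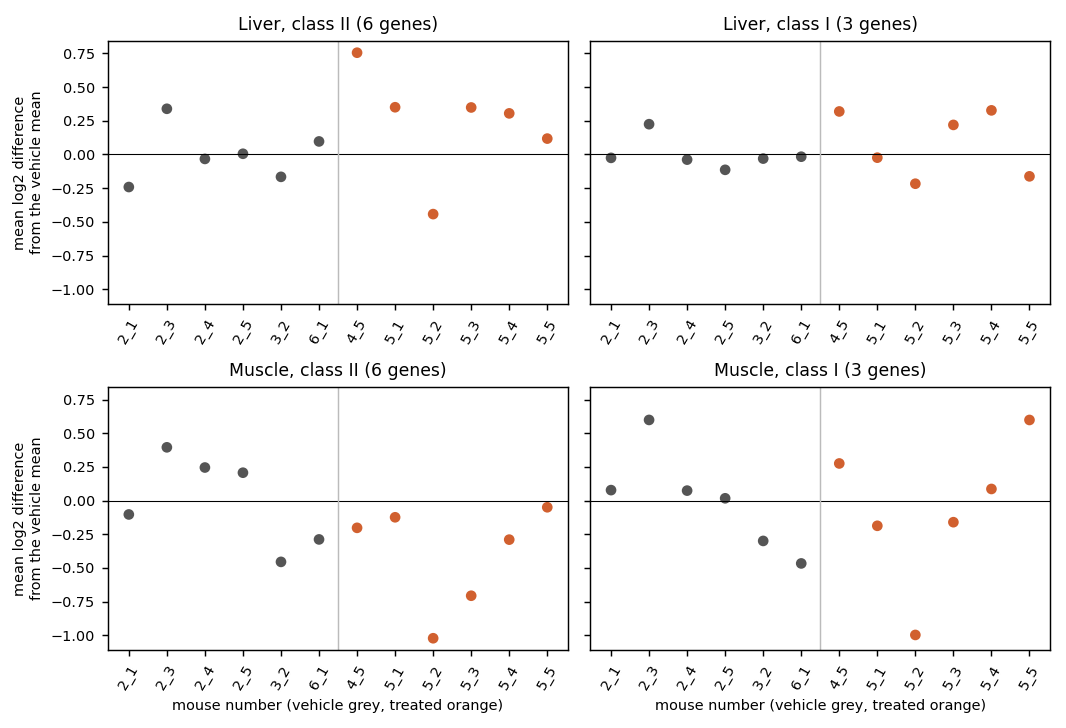
Score of each library at 40 d, the mean over the tested genes of a class of the log2 difference from the vehicle mean (log2(FPKM + 1) scale), for liver (top) and muscle (bottom). In liver class II, treated 4_5 (0.76) and 5_2 (-0.44) lie at opposite ends, and in muscle 5_2 is lowest in both classes (-1.02 and -0.998).

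The summed markers of the cells that make class II were also highest in 4_5 and lowest in 5_2 among treated livers, but not every single gene was. All 14 Kupffer cell and macrophage genes were tested and none passed, all 14 had a positive log2 fold change, and the median log2 fold change was 0.37. Their summed level was 1049 to 1241 FPKM in vehicle livers, and in treated livers 1064 (5_2) to 1619 (5_3) with 4_5 at 3990. Lyz2 alone gave 1616 FPKM of that last sum. Clec4f went the other way, with 62.4 FPKM in 4_5 and 68.9 in 5_2, and 5_2 was not the lowest treated liver for Timd4 or Marco. Of the leading genes, C1qa, a complement subunit made by macrophages, averaged 146 ± 18.5 FPKM in vehicle and 219 ± 106.5 in treated livers (limma adjusted p = 0.387). C1qb averaged 168 ± 8.63 and 237 ± 102.5 (limma adjusted p = 0.409). The 5 genes of all leukocytes summed to 62.5 to 73.0 FPKM in vehicle livers and to 52.5 (5_2) to 197 (4_5) in treated livers, with 5 of 5 positive and none passing. In the remaining leukocyte lists few genes reached the filter: 2 of 8 for B cells, 2 of 9 for dendritic cells and 1 of 9 for T and NK cells, with none passing. Summed B cell genes were 7.98 to 13.01 FPKM in vehicle livers and 4.51 (5_2) to 23.1 (4_5) in treated livers. Summed dendritic cell genes were 5.06 to 7.59 FPKM (median 7.11) in vehicle and 4.39 (5_2) to 10.3 (4_5) in treated livers, with a lower median of 6.315. Their tested genes went in opposite directions, Batf3 with a log2 fold change of 0.43 (limma adjusted p = 0.352) and Itgax with -0.23 (limma adjusted p = 0.523). None of the markers was at 0 in every liver. Their part in the class II values was not tested.

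Neutrophils, which carry little class II, were the exception among the markers. Of 6 genes 4 were tested, and S100a9, a subunit of calprotectin, passed, with a mean of 7.88 ± 2.37 FPKM under vehicle and 77.0 ± 85.6 under treatment (log2 fold change 2.62, limma adjusted p = 0.0449). It missed the threshold without treated 5_1, 5_3 or 5_5 or without any 1 vehicle liver (limma adjusted p up to 0.120). Summed neutrophil genes were 12.2 to 18.6 FPKM in vehicle and 31.6 to 466 in treated livers, and up to 12.97 and up to 60.4 in muscles, where 3 were tested and none passed. All 5 red cell genes were positive in each tissue and none passed, with sums of 375 to 1568 and 503 to 2551 FPKM in livers and 485 to 1015 and 340 to 2348 in muscles. Of the 6 endothelial genes none passed in either tissue (median log2 fold change -0.05 in liver and 0.10 in muscle). Cidec, the adipocyte gene tested in liver, averaged 160.0 ± 24.0 and 95.03 ± 28.3 FPKM (limma adjusted p = 0.0902). The part of these cells in the MHC values was not tested either.

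In liver the median log2 fold change of class I was 0.04, and no class I gene passed. H2-K1 ran from 492 to 669 FPKM in vehicle livers (median 537) and from 465 to 680 in treated livers (median 575.5), a log2 fold change of 0.04 (SE 0.11, 95% interval -0.20 to 0.28, limma adjusted p = 0.9065). H2-D1 ran from 282 to 417 (median 328.5) and from 287 to 488 (median 400), a log2 fold change of 0.22 (SE 0.14, 95% interval -0.08 to 0.52, limma adjusted p = 0.529). B2m ran from 1838 to 2601 (median 2057) and from 1693 to 2500 (median 2058), a log2 fold change of -0.03 (SE 0.14, 95% interval -0.33 to 0.27, limma adjusted p = 0.949). The groups overlapped for each. For H2-D1 3 of 6 treated livers exceeded all vehicle livers, and for B2m 3 of 6 lay below all of them. The intervals leave room for changes of either sign.

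The genes that feed and regulate class I and II in liver were taken from lists, and none of their members passed. All 9 tested peptide loading genes were higher on average, with a median log2 fold change of 0.17. Tapbp, which encodes tapasin, the bridge between class I and the peptide transporter, averaged 31.2 ± 1.67 FPKM in vehicle and 37.5 ± 5.63 in treated livers (limma adjusted p = 0.319). Its relative Tapbpl averaged 11.3 ± 1.40 and 12.9 ± 1.14 (limma adjusted p = 0.412). Of 6 genes listed for the immunoproteasome, the complex that cuts proteins into class I peptides, 5 were higher on average (median 0.10). Psmb10 averaged 23.7 ± 4.30 and 31.8 ± 5.48 FPKM (limma adjusted p = 0.207) and Psmb8 8.44 ± 2.16 and 11.3 ± 2.65 (limma adjusted p = 0.355).

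Of 11 tested regulators 9 were higher on average (median 0.12). Irf1, a factor of the interferon response, averaged 7.33 ± 1.49 FPKM in vehicle and 8.94 ± 1.43 in treated livers (limma adjusted p = 0.387), and Rfxank, a subunit of the factor on the X box, 1.54 ± 0.164 and 1.87 ± 0.392 (limma adjusted p = 0.445). Of 18 tested genes of interferon gamma signalling and its targets 17 were higher on average (median 0.15), led by the GTPases Irgm1 (2.79 ± 0.560 and 3.73 ± 0.658 FPKM, limma adjusted p = 0.242) and Irgm2 (10.6 ± 1.06 and 12.45 ± 1.53, limma adjusted p = 0.325). The lists overlap in part, with Irf1 and Psmb9 among the genes that are also in a list before it. In the list of further class II chains and proteases no chain reached the filter. All 5 tested genes of that list were proteases, and all were higher on average (median 0.21). They include Ctss, the protease that trims the invariant chain (128 ± 9.87 and 169.5 ± 50.7 FPKM, limma adjusted p = 0.381), and Ctsh (51.5 ± 2.44 and 59.97 ± 8.10, limma adjusted p = 0.329). Of 6 costimulation genes 2 were tested, Cd86 (2.19 ± 0.258 and 2.96 ± 1.15 FPKM, limma adjusted p = 0.427) and Cd274 (1.199 ± 0.312 and 1.65 ± 0.635, limma adjusted p = 0.472).

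Of 14 tested further class I chains 8 were higher and 6 lower on average in treated livers (median 0.04). The pair with the smallest p went in opposite directions. H2-Q1 averaged 60.2 ± 9.91 FPKM in vehicle and 33.9 ± 13.5 in treated livers (log2 fold change -0.885, limma adjusted p = 0.135), and H2-Q7 6.49 ± 0.793 and 8.63 ± 1.39 (log2 fold change 0.36, limma adjusted p = 0.175). Class I chains share sequence, so reads may be divided among them. Of all stretches of 50 bases in the transcripts, 14.3% for H2-D1 and 8.8% for H2-K1 occur also in other genes, H2-Q1 among them, and 27.2% for H2-DMb1 occur also in H2-DMb2. For the other 7 genes the share was 0.0%. Exons of a gene on the opposite strand cover 10.4% of H2-DMa (Brd2) and 3.5% of Ciita (Dexi), and the sources used here do not give whether counting used strand.

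The same comparison in muscle gave class II values on the other side of 0, and again no gene passed. All 6 tested class II genes were lower on average in treated muscles, by a log2 fold change of -0.53 to -0.22 with a median of -0.41, while the median of all 11708 genes was -0.0036 and 51.4% were negative. No gene of the whole table had a limma adjusted p under 0.05 (0%), and limma voom on the recovered reads also called 0. An unadjusted p under 0.05 was reached by 3 of the 6 (H2-DMb1, Cd74 and H2-Eb1), against 3.85% of all genes and 1.97% that were lower at that level. Voom gave 1 such gene. The groups overlapped for all 10, against 0.256% of genes whose groups did not overlap. The 3 share mice and cells, so they are not independent. Without treated 5_2 the class median was -0.27, with H2-Aa at -0.23 and H2-Ab1 at -0.21.

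H2-DMb1 had the smallest unadjusted p. Its vehicle libraries ran from 3.15 FPKM (6_1) over a median of 3.81 to 5.84 (2_3). Its treated libraries ran from 1.77 (5_2) over a median of 2.78 to 3.76 (5_5). No treated muscle reached the vehicle mean and 4 of 6 lay below every vehicle muscle, yet the groups overlapped. The mean was 4.20 ± 1.15 FPKM in vehicle and 2.78 ± 0.681 in treated muscles, a log2 fold change of -0.45 (SE 0.15, 95% interval -0.78 to -0.13, limma adjusted p = 0.999). The values rest on 40 to 170 reads per library.

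Cd74 ran from 54.8 to 91.7 FPKM in vehicle muscles (median 86.0) and from 35.55 to 72.3 in treated muscles (median 64.7), a log2 fold change of -0.45 (SE 0.19, 95% interval -0.86 to -0.03, limma adjusted p = 0.999). H2-Eb1 ran from 20.6 to 41.5 (median 29.8) and from 10.9 to 28.8 (median 23.7), a log2 fold change of -0.53 (SE 0.24, 95% interval -1.04 to -0.01, limma adjusted p = 0.999). In both genes no treated muscle was above the vehicle mean, 5_2 was the lowest of all, and 2 of 6 treated muscles lay below every vehicle muscle. H2-Aa ran from 14.2 to 27.0 FPKM (median 19.0) and from 8.30 to 18.9 (median 17.2), with means of 20.1 ± 5.29 and 15.3 ± 4.31. H2-Ab1 ran from 14.1 to 29.6 (median 21.8) and from 9.21 to 25.2 (median 18.5), with means of 21.9 ± 5.74 and 17.1 ± 5.62. H2-DMa, at 1.77 to 4.24 and 1.42 to 3.05 FPKM, had means of 2.85 ± 1.03 and 2.26 ± 0.686. The log2 fold changes of these genes were -0.38, -0.36 and -0.22 (SE 0.21, 0.22 and 0.18), all with limma adjusted p = 0.999. Ciita, under the filter, had 14 to 55 reads per muscle and means of 0.212 ± 0.0830 and 0.167 ± 0.0616 FPKM.

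Markers of class II cells did not lie uniformly lower in the treated muscles. Of 11 tested macrophage genes 7 were higher and 4 lower on average (median 0.04), none passed, and their sum was 279 to 419 FPKM in vehicle and 227 (5_2) to 724 (4_5) in treated muscles. The leukocyte genes summed to 14.1 to 26.7 FPKM and to 15.15 to 30.5. Medians of the sums, vehicle first, were 325 and 352 FPKM for macrophages and lower under treatment in the other lists. They were 19.95 and 18.9 for leukocytes, 52.0 and 40.25 for B cells and 6.49 and 5.45 for dendritic cells. For T and NK cells they were 1.195 and 0.784, and the sums of the groups overlapped in each list. Of 8 B cell genes only Ighm, the heavy chain of immunoglobulin M, was tested. It averaged 53.8 ± 14.7 FPKM in vehicle and 40.3 ± 6.69 in treated muscles (limma unadjusted p = 0.0473, limma adjusted p = 0.999). Of 9 dendritic cell genes 2 were tested, Cd209a (2.13 ± 0.650 and 1.54 ± 0.611 FPKM) and Zbtb46 (1.67 ± 0.343 and 1.75 ± 0.109), which lay on opposite sides of 0 (limma adjusted p = 0.999 for each), and no T and NK cell gene was. The part of these cells in the class II values was not tested.

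Among the pathway lists in muscle no gene passed (limma adjusted p = 0.999 for each gene named here). In the list of further class II chains and proteases no chain was tested. All 5 tested genes of that list were proteases, and all were lower on average, by a median log2 fold change of -0.04. Ctsb, a lysosomal protease, averaged 133 ± 10.7 FPKM in vehicle and 121 ± 22.8 in treated muscles, and Lgmn 28.3 ± 3.48 and 27.85 ± 6.33. The other lists had medians of 0.00 to 0.09. Of 19 tested interferon gamma genes 14 were higher on average, with Irgm1 at 1.13 ± 0.177 and 1.39 ± 0.176 FPKM. Of 11 regulators 10 were higher, of 9 peptide loading genes 7, of 6 immunoproteasome genes 4, and of 2 costimulation genes 1. Of 12 further class I chains 7 were higher, while Hfe, a class I-like protein of iron control, averaged 15.1 ± 1.964 and 13.04 ± 0.822 FPKM. H2-Q2 was listed at 0 in every muscle.

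**Figure D3:**
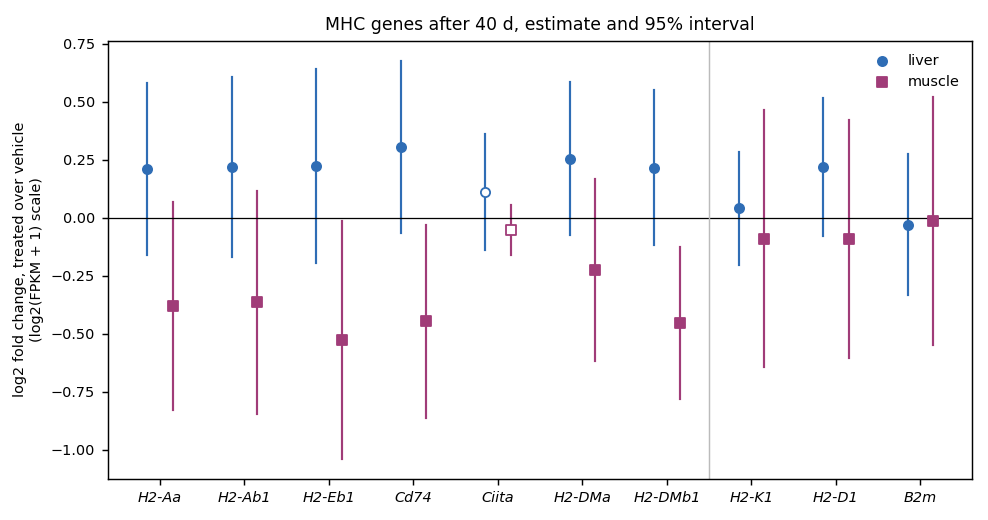
Log2 fold change, treated over vehicle, of each MHC gene after 40 d in liver (blue circles) and muscle (purple squares), with 95% intervals from limma. Open symbols mark Ciita, which was under the filter. Class II estimates lie above 0 in liver (0.21 to 0.31 for tested genes) and below 0 in muscle (-0.53 to -0.22), while class I estimates run from -0.03 to 0.22 in liver and from -0.09 to -0.01 in muscle.

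Whether the drugs acted differently on these genes in liver and muscle was tested as the difference of the log2 fold changes, and no MHC gene passed. The whole table held 1 such gene among 9436 tested (0.0106%). For Cd74 the difference, liver minus muscle, was 0.75 (SE 0.27, 95% interval 0.20 to 1.30, limma adjusted p = 0.718). For H2-DMb1 it was 0.67 (SE 0.22, 95% interval 0.21 to 1.13, limma adjusted p = 0.712). H2-Eb1 stood at 0.75, H2-Aa at 0.59, H2-Ab1 at 0.58 and H2-DMa at 0.48, with limma adjusted p between 0.929 and 0.971. The class II genes were all positive in this contrast, against 50.2% of all genes, which follows from their signs in liver and muscle and adds no further result. Of the 6, 4 had a limma unadjusted p under 0.05, while 2.73% of all genes were positive at that level. These genes share mice and cells, so they are not independent. In class I the differences were 0.13 for H2-K1, 0.31 for H2-D1 and -0.02 for B2m, with limma adjusted p = 0.997 for each.

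In muscle, class I differed more between mice than between groups. H2-K1 ran from 99.98 to 212 FPKM in vehicle muscles (median 137) and from 67.0 to 228 in treated muscles (median 124). H2-D1 ran from 139 to 285 (median 179) and from 88.7 to 252 (median 178). B2m ran from 295 to 628 (median 436) and from 227 to 659 (median 473). Each gene was lowest in treated 5_2 among all muscles, and the treated maximum was in 5_5. Log2 fold changes were -0.09, -0.09 and -0.01 (SE 0.26, 0.24 and 0.25), all with limma adjusted p = 0.999, and without 5_2 all became positive (0.09, 0.10 and 0.18).

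The level of fat cell transcripts moved with class I across these muscles. The 5 adipocyte markers (Adipoq, Plin1, Cidec, Lep and Cfd) were all tested, none passed, and their sum was 317 (6_1) to 1309 (2_3) FPKM in vehicle and 149 (5_2) to 1460 (5_5) in treated muscles. The 2 muscles with most adipocyte transcript, treated 5_5 and vehicle 2_3, both had a class I score of 0.60. The 2 with least, treated 5_2 and vehicle 6_1, had scores of -0.998 and -0.47. In class II, 5_2 was again the lowest muscle (-1.02), and 2_3 (0.40) and 5_5 (-0.05) were the highest of their groups. There 5_5 lay below 2_3, and 6_1 (-0.29) was not the lowest vehicle muscle. The part of fat cells in the values of either class was not tested.

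**Figure D4:**
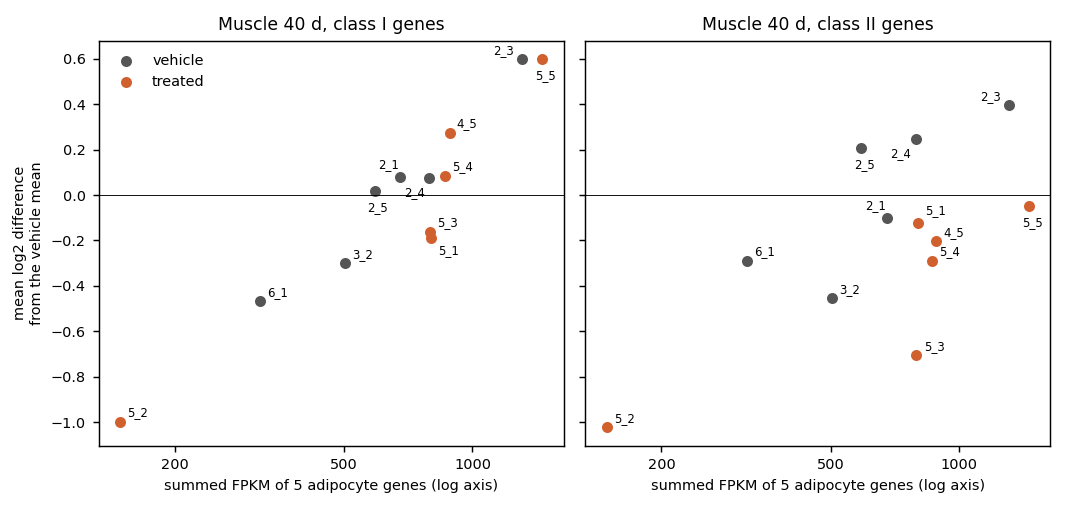
Score of class I (left) and class II genes (right) in each muscle at 40 d against the summed FPKM of 5 adipocyte genes (log axis), vehicle grey and treated orange, with mouse numbers. Class I scores run from -0.998 at 149 FPKM (5_2) to 0.60 at 1309 and 1460 FPKM (2_3 and 5_5). Class II is also lowest in 5_2 (-1.02), and in 2_3 and 5_5 its scores are 0.40 and -0.05.

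The class II genes varied together over the livers, and the class I genes over the muscles. After the group means were taken off, Pearson's r between pairs of class II genes over the 12 livers was 0.88 to 0.98 (median 0.94, 15 pairs), and it was 0.65 to 0.945 without the 2 libraries farthest from the median. Between the classes it was 0.31 to 0.91 (median 0.65), or -0.17 to 0.83 without those libraries. Within class I it was 0.56 to 0.86 (median 0.57, 3 pairs). There the heavy chains H2-K1 and H2-D1 gave 0.86 (0.83 without the 2 farthest libraries), above the median between the classes. B2m gave 0.56 with H2-K1 and 0.57 with H2-D1, below it. In the 12 muscles r was 0.71 to 0.97 within class II (median 0.81), 0.91 to 0.97 within class I (median 0.93) and 0.52 to 0.89 between them (median 0.81). Without the 2 farthest libraries the medians were 0.75 within class II, 0.86 within class I and 0.66 between them. Whether muscle class II stood above the values between the classes thus depended on those libraries. These genes come from the same libraries and largely the same cells, so the values are descriptions.

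The genes whose spread over the mice was most like that of each class were listed by the same measure, taking only genes that averaged 5 FPKM or more. For liver class II they were Crlf2 (r = 0.91), Pim1 (0.91), Csrp2 (0.90), Lst1 (0.90) and Psmb8 (0.90), and for liver class I AW112010 (0.95), Cxcl9 (0.91), Dut (0.91), Sod2 (0.88) and Nr1h3 (0.88), over 12 libraries and 5759 genes. Psmb8 is an immunoproteasome subunit and Cxcl9 a chemokine induced by interferon gamma. For muscle class II they were Rcc2 (0.92), Arl6ip1 (0.91), P3h1 (0.89), Htra1 (0.89) and Pxdc1 (0.89) among 6187 genes. For muscle class I they were Lipe (0.98), Cyb5a (0.97), Cebpa (0.96), Phgdh (0.96) and Carhsp1 (0.96). Lipe encodes hormone-sensitive lipase and Cebpa a factor of fat cell differentiation, and neither is among the 5 adipocyte markers. In muscle, 1.57% of the genes compared had r above 0.9 with class I, against 0.0323% with class II.

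The heavy chains were not in the same proportion in the tissues. The ratio of H2-K1 to H2-D1 FPKM within a library, which does not depend on the scaling of libraries, was 1.25 to 1.75 in the 12 livers and 0.657 to 0.905 in the 12 muscles at 40 d. H2-K1 thus exceeded H2-D1 in every liver and fell short of it in every muscle. The 24 h libraries lay on the same sides, at 1.63 (vehicle) and 1.575 (treated) in liver and 0.645 and 0.707 in muscle. Among livers at 40 d the ratio was 1.64 ± 0.0580 in vehicle and 1.455 ± 0.181 in treated mice. Treated 4_5 (1.25), 5_3 (1.32), 5_5 (1.35), 5_4 (1.505) and 5_1 (1.58) lay below the lowest vehicle liver (1.59), the last by little, and 5_2 stood at 1.72. This ratio was chosen after its values had been seen, so no test is given, and reads shared between the genes may enter it.

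**Figure D5:**
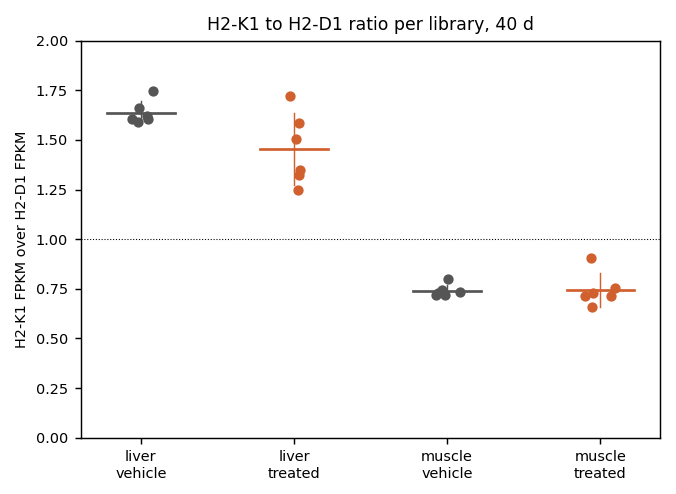
Ratio of H2-K1 to H2-D1 FPKM in each library at 40 d, with group means (horizontal lines) and 1 SD (vertical lines, n = 6), and equal levels as a dotted line. All livers lie above 1 (1.25 to 1.75) and all muscles below it (0.657 to 0.905).

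At 24 h there was 1 library per group and tissue, so no test was possible and differences between mice cannot be told apart from the drugs. In liver, class II genes stood close together: Cd74 had 473 FPKM in the vehicle and 478.5 in the treated library, H2-Aa 144 and 135, and H2-Eb1 194 and 205. Over the 7 class II genes, all at 1 FPKM or more in at least 1 library, the median log2 ratio was 0.06, and over class I it was 0.16, with a median of 0.04 over all 12923 genes. Of the 10 genes 9 had a ratio above 1, against 57.3% of all genes, and none passed 1.5-fold, which 3.48% of genes did upwards and 3.49% downwards. Scaling each library to the same sum moved the median of all genes by -0.13, and with it the ratios of H2-Eb1, Cd74, H2-DMa, H2-DMb1 and B2m became negative.

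In muscle at 24 h all 9 MHC genes at 1 FPKM or more were higher in the treated library, against 47.0% of all genes, whereas all 9 estimates after 40 d were below 0 (that of B2m above 0 with rescaled libraries or limma voom). H2-K1 had 203 FPKM in the vehicle and 339 in the treated library, a ratio of FPKM of 1.67, and H2-D1 had 315 and 480, a ratio of 1.525. These were the MHC genes past 1.5-fold, which 7.52% of 12878 genes passed upwards. B2m had 691 and 1019 FPKM, a ratio of 1.475. Class II ratios ran from 1.135 (Cd74, 211 and 239 FPKM) to 1.32 (H2-Eb1, 77.9 and 103, and H2-DMb1, 7.14 and 9.42), and Ciita, under the filter, had 0.359 and 0.538. The median log2 ratio was 0.33 in class II and 0.61 in class I, and -0.02 over all genes. Beside them, the adipocyte genes summed to 1425 FPKM in the vehicle and 2789 in the treated muscle, the B cell genes to 53.6 and 248, and the macrophage genes to 828.5 and 756.5. The hepatocyte genes summed to 106.6 and 5.74, the myofibre genes to 31003 and 20457, the T and NK cell genes to 2.70 and 6.15 and the dendritic cell genes to 16.15 and 12.4. Mitochondrial genes took 6.94% and 10.97% of reads. The part of these values in the ratios was not tested.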

How the data were processed

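Expression was measured by RNA-seq in 28 samples, with RNA extracted by Trizol and NEBNext Ultra libraries, per the labels' protocols. The authors deposited 3 tables of FPKM values, one per tissue at 40 d and one for 24 h, per the file headers. The submitters' processing notes name the builds GRCm38 and mm10. The sources used here give neither the aligner nor the counter. The authors' deposited tables also give the length of each gene. With it, 100% of the FPKM values checked came out as whole reads within 0.01, which gave the number of reads behind each value. Values resting on many reads, among them all those of B2m, H2-K1 and H2-D1, were not part of this check. The tables were normalized separately, so tests were made within a table.

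Groups were taken from the labels. Genes reaching 1 FPKM in 6 or more of a tissue's 12 libraries were tested on log2(FPKM + 1) with limma 3.58.1 (R 4.3.3), moderated with a trend, two-sided, 6 against 6, with Benjamini-Hochberg adjustment over all genes tested and a threshold of 0.05. The difference between tissues was a contrast over the 24 libraries at 40 d, among genes tested in both. Libraries of a group were taken as separate mice by their label numbers, and p-values measure the spread between them. At 24 h, genes with 1 FPKM in either library were compared as ratios of FPKM + 1, and the 1.5-fold limit applies to these. Limma voom on the recovered reads, a pseudocount of 0.1, no filter, libraries rescaled to a sum of 1000000 and each library left out were alternatives, and leaving out treated 4_5 and 5_2 together was chosen after seeing the data. The tests were checked on simulated data. Python 3.11.15, pandas 2.3.3, SciPy 1.17.1 and matplotlib 3.10.9 made tables and figures.

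The 10 genes, the other gene lists and the marker lists were chosen with earlier results of these data known. By rule the text names all 10 genes, in the other lists the members that pass or otherwise up to 2 with the smallest p, and the 5 genes most like each class. Not every gene the rule allows is named, and Lyz2, Clec4f, Timd4 and Marco are named outside it to show how the macrophage genes differ.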

Additional observations from a re-analysis of the deposited data

Results flagged for a closer look

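Among 48 groups of 6 libraries examined (the 10 genes and the 2 class scores, in both groups of both tissues at 40 d), 2 held a library whose gap to the nearest other was large for the range of its group. Chance alone gives about 1 in 20. H2-K1 stood at 669.1 FPKM in the liver of vehicle 2_3, with the other vehicle livers between 492 and 543. The class I score of the same liver was 0.2247, with the others between -0.11 and -0.02. Both rest on the same library, and H2-K1 is part of the score.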

How the results depend on the processing

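No MHC gene passed in liver, muscle or the difference between tissues under any alternative run. The number of genes passing over the whole table in liver (28) was 0 with no filter on low values and 144 without treated 4_5 and 5_2, a setting chosen after seeing the data. In muscle (0) it was 1 with rescaled libraries, and in the difference between tissues (1) it was 7 with no filter and 2 with rescaled libraries. With 1 library left out, these counts ran from 0 to 83 in liver, 0 to 1 in muscle and 0 to 2 in the difference, and the count of MHC genes stayed at 0.

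The class II medians kept their sign with any 1 library left out, at 0.14 to 0.37 in liver and -0.50 to -0.27 in muscle. The class I medians did not, at -0.01 to 0.10 in liver and -0.20 to 0.10 in muscle. With 1 library left out, single estimates also changed sign for B2m (-0.0866 to 0.0337 in liver, -0.13 to 0.18 in muscle, -0.15 to 0.16 in the difference), H2-K1 (-0.0142 to 0.0994, -0.258 to 0.0929 and -0.0149 to 0.353) and H2-D1 in muscle (-0.20 to 0.10). In muscle B2m stood at 0.0287 with limma voom and 0.0309 with rescaled libraries, and without 4_5 and 5_2 H2-K1, H2-D1 and B2m stood at 0.0544, 0.0461 and 0.152. Rescaled, the liver ratios at 24 h were -0.0694 for H2-Eb1, -0.13 for Cd74, -0.085 for H2-DMa, -0.12 for H2-DMb1 and -0.0519 for B2m. The cause was not tested.

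The mouse number as a replicate block left 1 gene passing in the difference between tissues and no MHC gene (limma adjusted p 0.512 to 0.996). Liver and muscle of the same number deviated together (correlation over 0.1) in 7 of 12 mice. In 7 of 12 the liver correlated best with the muscle of its own number, among the 6 muscles of its group. That is more often than random matching would give. The main contrast still left the numbers unpaired, because the labels do not state pairs in words, and the block is the alternative that uses them.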

Other observations

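Class II levels in the 24 h muscles stood above those at 40 d. With every library rescaled to a sum of 1000000 so that the tables could be set side by side, both 24 h muscles lay above all 12 muscles of 40 d in 5 of the 10 genes (H2-Aa, H2-Ab1, H2-Eb1, Cd74 and H2-DMa). Cd74 stood at 500 (vehicle) and 575.5 (treated) at 24 h, and at 84.8 to 272.5 at 40 d. H2-Aa stood at 140 and 172, against 19.8 to 80.2. Ptprc, which encodes the leukocyte antigen CD45, was at 2.52 and 3.55, against 0.543 to 2.17. In liver, 0 of the 10 genes were above the 40 d range in both 24 h libraries. The tables were normalized separately and the 24 h groups have 1 library each, so time, mouse and table cannot be told apart.

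The same mouse number was at the end of the range in both tissues for several genes. Treated 5_2 was the lowest treated library for 8 of 10 genes in liver and for 8 of 10 in muscle, and vehicle 2_3 the highest vehicle library for 8 of 10 in each. Treated 4_5, the highest treated liver for 9 of 10 genes, was the highest treated muscle for 0. The labels do not say in words that a number means 1 mouse in both tissues.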
